A study of Mus musculus with 6 samples.

Results

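The replication fork is the moving site at which the helicase opens parental DNA and the replicative polymerases copy both strands. Described here are the messenger RNAs of 35 genes that build it: the subunits of DNA polymerases alpha, delta and epsilon, the GINS complex with Cdc45, the sliding clamp and its loader, the single-strand binding protein RPA, the enzymes that join Okazaki fragments, the fork protection proteins and the histone chaperone CAF-1. They were chosen by gene symbol, with earlier results of these data known. All 35 were found among the 45527 named genes of the deposited count table. The cells were satellite cells, the stem cells of skeletal muscle, sorted by yellow fluorescent protein (YFP) 24 h after 30 µl of cardiotoxin had injured the lower hindlimb muscles of mice. Every mouse carried Pax7creER, a Cre recombinase driven by the Pax7 promoter and switched on by tamoxifen, and R26R-YFP, the Cre-dependent reporter. The 3 control libraries came from Paxbp1flox/+ mice, which still have 1 allele without loxP sites, and the 3 Paxbp1-iKO libraries from Paxbp1flox/flox mice. Cre acted in the Pax7 lineage alone, the controls carried it too, and the sources state neither the age of the mice nor which animals stand behind a library, so p-values measure the spread between these libraries.

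In a dividing cell, the CMG helicase (the MCM ring bound to Cdc45 and GINS) unwinds DNA, polymerase alpha-primase lays primers, polymerase epsilon extends the leading strand and polymerase delta the lagging strand, both helped by the clamp PCNA, which the RFC clamp loader places on DNA. Satellite cells rest outside the cell cycle in uninjured muscle and start their first S phase within days of an injury. Many of these genes are transcribed in late G1 under E2F transcription factors, while some subunits also serve in chromatin remodelling or repair and are made in resting cells.

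Total counts on named genes were 23299344 to 28016271 per library. The targeted gene went against its label: Paxbp1 stood at 70.8, 74.1 and 61.0 CPM (counts scaled to library size) in the control libraries, in the order of their numbers, and at 96.2, 108 and 127 CPM in the iKO-labelled ones, a log2 fold change of 0.68 ± 0.13 (SE); this call ended on unfiltered log2(FPKM + 1) and with 1.5-fold as the null size. Counts cover the whole gene, so they do not show whether the floxed part was removed, and the groups are called control and iKO-labelled throughout, with every direction drawn from those labels. Of 10 satellite cell markers 6 rose, 3 fell (Myf5, Itga7 and Des) and Myod1 was not called. The 10 together summed to 9245 to 9672 CPM per control library and to 12906 to 13368 CPM per iKO-labelled one. Sdc4 weighs most in this sum, with the highest mean of the 10 in each group (control 3730 CPM, iKO-labelled 6362 CPM). The higher sum thus does not stand for a rise of every marker. Summed markers of fibro-adipogenic, endothelial, macrophage, neutrophil, lymphocyte, Schwann, tendon and muscle fibre cells overlapped between the groups, and of all these only Acta1, a fibre actin, was called (lower). The 5 pericyte and smooth muscle markers summed to 207 to 304 CPM in the controls and 96.0 to 125 CPM in the iKO-labelled libraries; only Acta2, smooth muscle actin, was called among them (mean 188 CPM against 43.8 CPM), while Rgs5 was at 16.6 to 84.5 CPM and Myh11 at 1.70 to 7.57 CPM over all 6 libraries with groups that overlapped. The part of these shifts in the results below was not tested. In sorted bulk cells, fewer cells in S phase and less RNA per cell cannot be told apart.

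Promoter sequence was looked at because the members moved together. The RefSeq promoter table (GRCm38.p6, 250 bases before to 50 bases after a transcription start) held 33 promoters of 28 members. They were searched on both strands for 4 words that fit the E2F consensus, TTTCCCGC, TTTCGCGC, TTTGCCGC and TTTGGCGC. At least 1 word was present in 11 of the 33 promoters (33.3%), against 2.26% of all 32851 promoters in the table and 3.77% of those of tested genes. The members with a word were Clspn, Gins3, Lig1, Pclaf, Pola1, Pold1, Pold3, Pole2, Pole4 and Rfc3. The box CCAAT, bound by NF-Y, was in 45.5% of the members' promoters, 37.4% of all promoters and 36.8% of those of tested genes. The words TTTGAA and TTCGAA, which fit the cell cycle homology region (CHR), were in 15.2% of the members' promoters, between the 19.2% of all promoters and the 14.0% of those of tested genes. The sequences below run from 150 bases before the start to 30 bases from it on; they show 6 of the members with a word inside that window, whose changes span the range of the set, and, for contrast, Chaf1b, which holds no word. Pole4 has 2 starts in the table, and 1 of them is shown. Capitals mark the E2F words, which read as their reverse complement where the match is on the other strand.
Pclaf, plus strand, chr9:65890173-65890352: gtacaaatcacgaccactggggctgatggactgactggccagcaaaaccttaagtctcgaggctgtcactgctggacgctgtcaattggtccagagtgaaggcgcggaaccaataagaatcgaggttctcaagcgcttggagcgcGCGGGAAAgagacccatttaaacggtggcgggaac
Clspn, plus strand, chr4:126556830-126557009: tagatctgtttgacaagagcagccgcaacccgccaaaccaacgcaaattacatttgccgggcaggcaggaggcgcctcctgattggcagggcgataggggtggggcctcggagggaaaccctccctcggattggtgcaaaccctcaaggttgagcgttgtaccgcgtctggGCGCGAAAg
Pola1, minus strand, chrX:93632126-93632305: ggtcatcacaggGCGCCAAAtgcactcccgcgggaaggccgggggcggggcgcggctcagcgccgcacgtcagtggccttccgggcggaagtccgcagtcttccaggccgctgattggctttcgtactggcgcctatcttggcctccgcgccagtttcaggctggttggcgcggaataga
Gins3, plus strand, chr8:95633409-95633588: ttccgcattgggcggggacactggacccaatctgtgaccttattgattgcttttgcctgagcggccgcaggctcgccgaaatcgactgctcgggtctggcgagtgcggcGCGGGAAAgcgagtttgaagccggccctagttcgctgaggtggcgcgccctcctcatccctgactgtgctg
Rfc3, minus strand, chr5:151651179-151651358: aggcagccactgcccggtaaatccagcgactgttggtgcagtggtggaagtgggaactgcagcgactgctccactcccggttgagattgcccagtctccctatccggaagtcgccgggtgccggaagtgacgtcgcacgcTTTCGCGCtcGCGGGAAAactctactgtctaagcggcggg
Pole4, minus strand, chr6:82652845-82653024: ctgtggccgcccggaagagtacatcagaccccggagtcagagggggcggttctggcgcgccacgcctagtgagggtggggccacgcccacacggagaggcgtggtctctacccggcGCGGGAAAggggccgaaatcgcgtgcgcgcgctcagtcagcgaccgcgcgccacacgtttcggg
Chaf1b, plus strand, chr16:93883751-93883930: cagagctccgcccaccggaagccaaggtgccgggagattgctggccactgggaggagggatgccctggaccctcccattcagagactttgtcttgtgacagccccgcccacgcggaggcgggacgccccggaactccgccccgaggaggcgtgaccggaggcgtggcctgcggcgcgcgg
Counted with the start as 1 and no base 0, the word began at base -5 in Pclaf, at 22 in Clspn, at -138 in Pola1, at -41 in Gins3, at -10 and 1 in Rfc3 and at -34 in Pole4. A match is a description of letters and not a shown binding site. The median log2 fold change was -2.05 over the 10 members with a word (-5.90 to -0.15) and -1.69 over the 18 without (-3.60 to 0.00), and these ranges overlap. Timeless is among the 18, but its only start in the promoter table (128238066) lies inside the gene, which begins at 128232065 in GENCODE M21. Sequence before that gene start was not searched. The 2 largest falls, Pclaf and Clspn, hold a word, as does Pole4, which was not called; Chaf1b holds none and had a log2 fold change of -3.60.

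The fork genes were lower in the iKO-labelled libraries. Of the 35 members, 30 fell and none rose (adjusted p under 0.05 by the quasi-likelihood test of edgeR, with Benjamini-Hochberg adjustment across 16252 genes), where 12.3% of all tested genes were lower and 8.15% higher. At an unadjusted p under 0.05 the counts were 33 lower and 0 higher, and DESeq2 and limma-voom called 31 and 30 lower and 0 higher. The median log2 fold change was -1.77, against 0.02 over all tested genes. In 33 members every iKO-labelled library lay below every control, where 20.9% of all tested genes did; in none did every iKO-labelled library lie above, where 18.9% of all tested genes did. The size of the change differed greatly among members: 6 had a log2 fold change of -3 or below, 8 between -3 and -2, 14 between -2 and -1, and 7 above -1.

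With 1.5-fold as the null size, the calls of Pold2, Pold3, Pole2, Gins3, Rfc1, Rfc3 and Tipin ended, and on unfiltered log2(FPKM + 1) those of Pold2, Pold3, Pole, Pole2, Gins3, Cdc45, Rfc3, Rfc5 and Tipin.

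**Figure D1:**
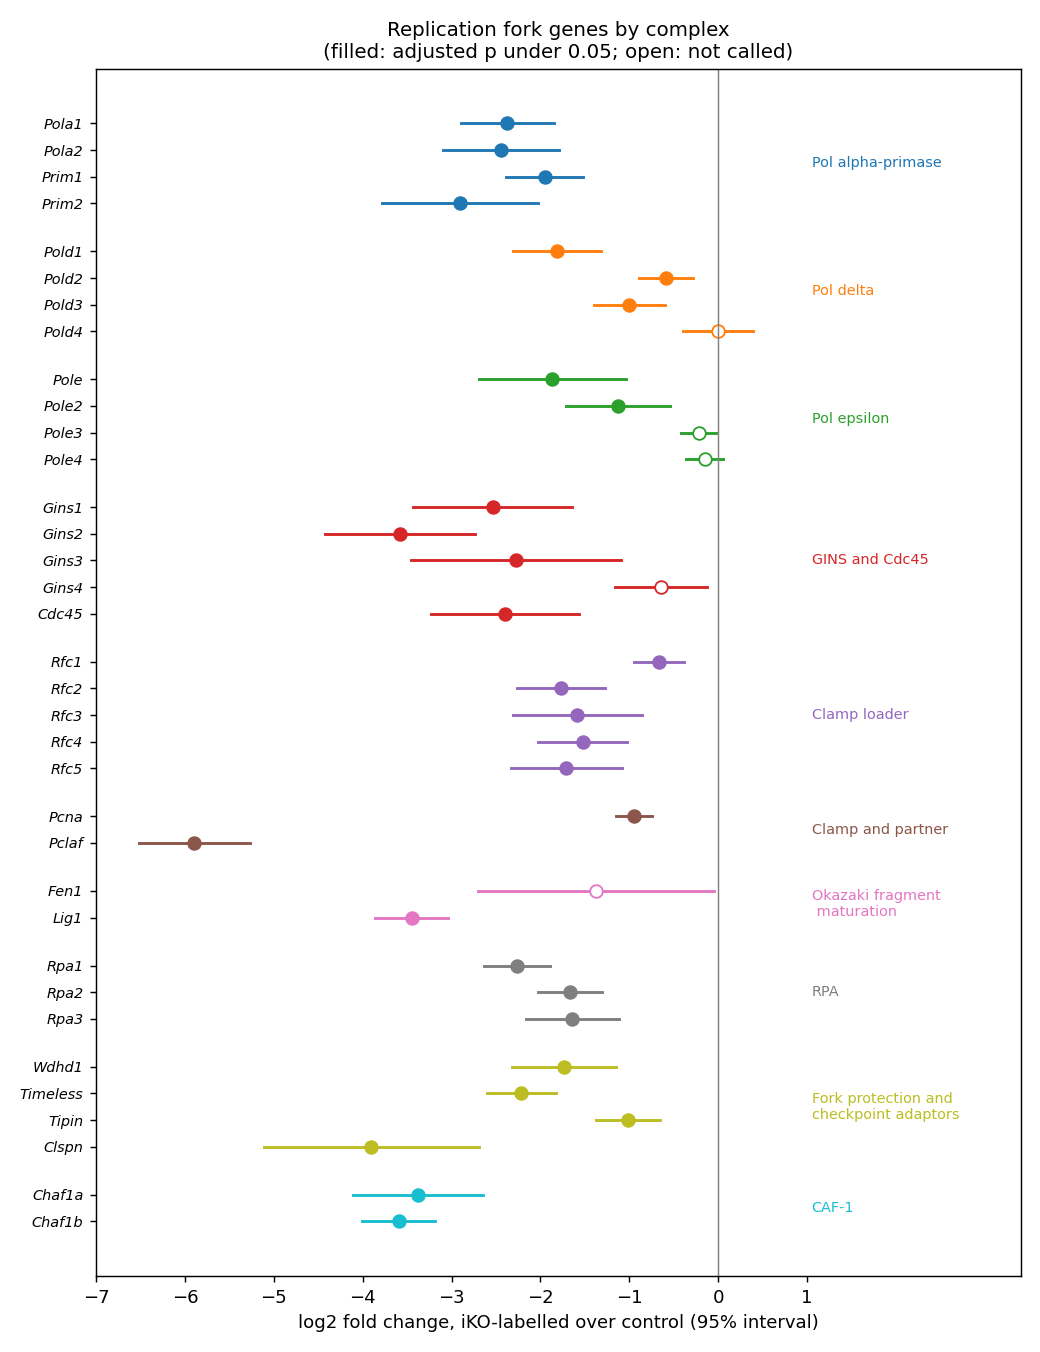
Log2 fold change of each of the 35 fork genes (iKO-labelled over control, x axis) with its 95% interval, ordered by complex; filled circles passed the test and open circles did not. Pclaf lies farthest to the left at -5.90, and Pold4, Pole3, Pole4, Gins4 and Fen1 are the 5 open circles.

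Polymerase alpha-primase, which starts every new strand, fell as a whole: all 4 subunits were called. Pola1, the catalytic polymerase subunit, was at 66.3, 87.7 and 86.9 CPM in the 3 controls, again in the order of their numbers, and at 11.6, 20.2 and 14.6 CPM in the 3 iKO-labelled libraries (log2 fold change -2.38 ± 0.23, adjusted p = 4.7e-04 by edgeR). Pola2, its regulatory partner, was at 29.4, 33.5 and 39.8 CPM and at 4.59, 8.90 and 5.35 CPM (-2.44 ± 0.28). The primase catalytic subunit Prim1 went from 46.7, 58.6 and 48.9 CPM to 15.1, 10.53 and 14.2 CPM (-1.95 ± 0.19). Prim2, the iron-sulfur subunit of primase, had the largest change of the 4, from 30.1, 48.6 and 30.8 CPM to 3.61, 7.70 and 3.20 CPM (-2.91 ± 0.38). In none of these genes did the groups overlap. Divided by the count of Pola1 in the same library, Pola2, Prim1 and Prim2 gave log2 ratios that overlapped between the groups, with mean differences of -0.09 ± 0.11 (SE), 0.44 ± 0.40 and -0.59 ± 0.30.

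Polymerase delta changed unevenly, with its catalytic subunit falling most and its smallest subunit not called. Pold1, the catalytic and proofreading subunit, was at 96.5, 107 and 126 CPM in the controls and at 41.2, 23.5 and 28.7 CPM in the iKO-labelled libraries (log2 fold change -1.82 ± 0.21, adjusted p = 0.00106 by edgeR). Pold3, which also acts in break-induced replication, went from 75.2, 88.4 and 95.1 CPM to 38.7, 37.0 and 53.7 CPM (-1.0 ± 0.17). Pold2, the B subunit that joins the catalytic subunit to the others, was at 131, 147 and 141 CPM and at 105, 98.3 and 75.6 CPM (-0.59 ± 0.13, adjusted p = 0.0167); this call ended without control 2 or control 3 (adjusted p up to 0.0553). Every iKO-labelled library was below every control for these 3 genes. Pold4, the small subunit that is degraded after DNA damage, was at 53.6, 55.5 and 69.0 CPM in the controls and 64.1, 67.3 and 46.8 CPM in the iKO-labelled libraries. Its groups overlapped, and the 95% interval of its log2 fold change, -0.39 to 0.40, leaves out a change the size of that of Pold1. In GENCODE M21, 24.6% of the exon bases of Pold4 are also exons of the protein-coding gene AC109138.7 on the same strand, so its level and its ratio to Pold1 carry that uncertainty.

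The ratio of 2 subunits within a library does not depend on how libraries are scaled, and in polymerase delta it separated the groups. The log2 ratio of Pold4 to Pold1 counts was -0.85, -0.94 and -0.87 in the controls and 0.64, 1.52 and 0.71 in the iKO-labelled libraries, a mean difference of 1.84 ± 0.28 (SE), or 3.58-fold. Pold1 thus had the higher count of the pair in each control and the lower count in each iKO-labelled library. The ratio of Pold2 to Pold1 was higher by 1.25 ± 0.25 and that of Pold3 to Pold1 by 0.84 ± 0.30, without overlap of the groups. Over the fork, 25 such pairs were compared, each against a reference subunit of its complex, and in 15 of them the groups did not overlap, 8 higher and 7 lower in the iKO-labelled libraries. When every tested gene was set against the same references, weighted by the pairs of each, 78.8% of the ratios were higher without overlap and 1.2% lower, where 9 of the 10 references were themselves called lower. A higher ratio is thus what most genes gave (81.8% of tested genes against Pold1, 79.4% against Pole and 87.6% against Gins1), and it shows only that the subunit changed less than its reference. A lower ratio was rare, at 4.03% of tested genes against Rfc1 and 2.47% against Pcna. It shows only that the subunit fell more than its reference. Rfc1 and Pcna fell less than most members (log2 fold changes -0.66 and -0.95, member median -1.77), so most members fell more than these references. With 3 libraries against 3, an exact two-sided permutation test cannot go below p = 0.10, and the smallest value adjusted over the 25 pairs was 0.167, so each pair is given by its values and their spread.

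**Figure D2:**
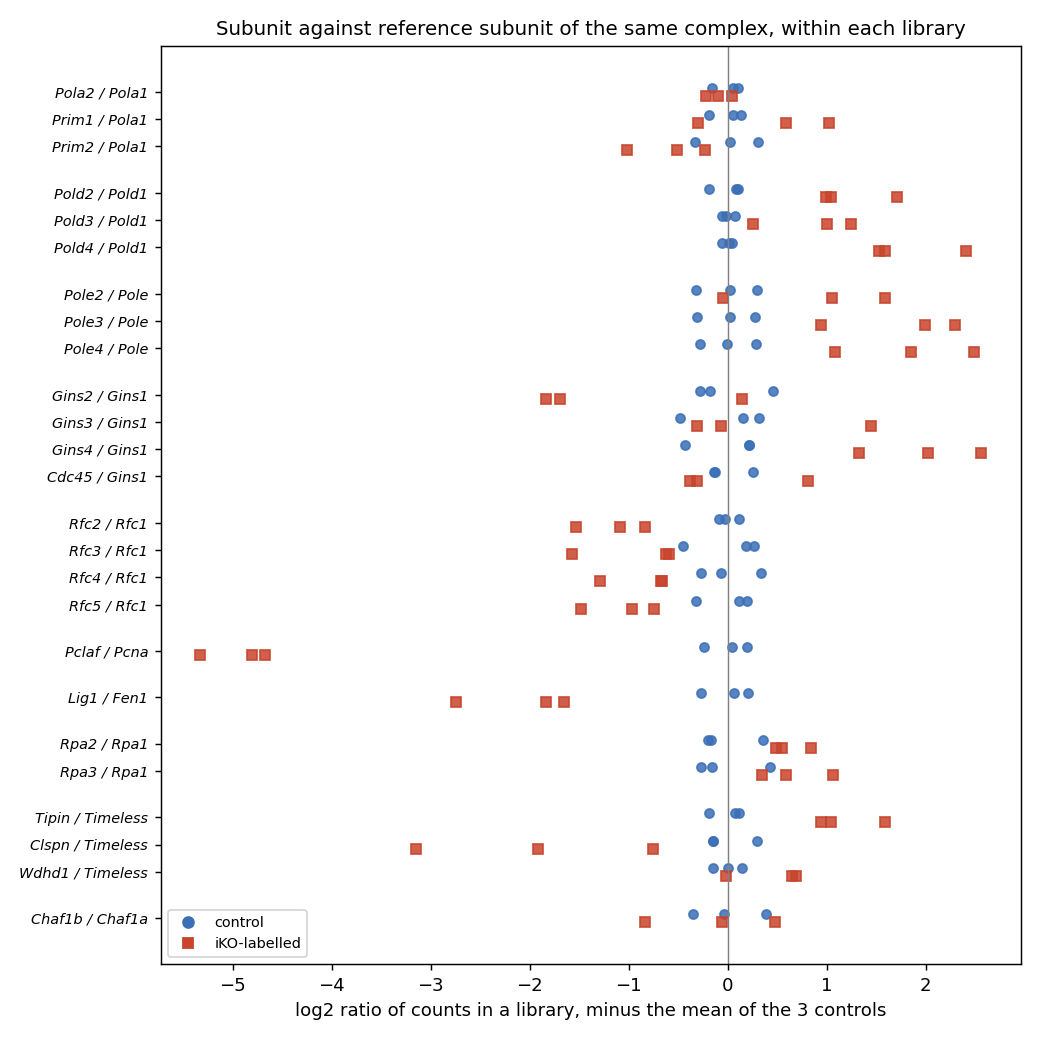
Log2 ratio of the counts of a subunit to those of the reference subunit of its complex, in each library, minus the mean of the 3 controls; circles are controls and squares iKO-labelled libraries. Squares for Pold4, Pole3, Pole4 and Gins4 lie to the right of the circles and those for Pclaf, Lig1 and Rfc2 to the left.

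In polymerase epsilon the 2 subunits of the polymerase core fell and the 2 histone-fold subunits were not called. Pole, the catalytic subunit, was at 26.9, 24.0 and 35.7 CPM in the controls and 6.48, 12.4 and 4.79 CPM in the iKO-labelled libraries (log2 fold change -1.86 ± 0.36, adjusted p = 0.00906 by edgeR). Pole2, which tethers the catalytic subunit to the helicase, went from 10.95, 15.04 and 18.4 CPM to 6.83, 6.14 and 7.34 CPM (-1.13 ± 0.25, adjusted p = 0.0171). The call of Pole2 was lost when control 2, control 3, iKO 1 or iKO 2 was left out, with an adjusted p that reached 0.0681. Pole3 and Pole4 carry histone folds, bind histones as a pair, and Pole3 is also a subunit of the chromatin remodeller CHRAC. Pole3 was at 121, 128 and 128 CPM in the controls and 114, 106 and 104 CPM in the iKO-labelled libraries (log2 fold change -0.22 ± 0.09, adjusted p = 0.115). Its groups did not overlap, but the gap was small. Pole4 was at 163, 178 and 180.1 CPM and at 143, 161 and 165 CPM (-0.15 ± 0.09, adjusted p = 0.29), and its groups overlapped. Against Pole in the same library, the log2 ratio of Pole4 was 2.60, 2.89 and 2.34 in the controls and 4.46, 3.69 and 5.10 in the iKO-labelled libraries (difference 1.81 ± 0.44), and that of Pole3 was higher by 1.74 ± 0.44. The ratio of Pole2 to Pole overlapped between the groups (0.86 ± 0.51).

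GINS, the 4-protein ring that activates the MCM helicase together with Cdc45, held both a very large change and a member that was not called. Gins2 was at 27.2, 27.8 and 30.7 CPM in the controls and 1.26, 2.25 and 3.65 CPM in the iKO-labelled libraries (log2 fold change -3.58 ± 0.37, adjusted p = 5.7e-04 by edgeR). Gins1 went from 9.03, 15.4 and 15.8 CPM to 2.07, 3.34 and 1.5 CPM (-2.54 ± 0.39). Gins3 went from 4.52, 13.4 and 12.3 CPM to 1.16, 2.22 and 2.88 CPM (-2.27 ± 0.51, adjusted p = 0.017), with control 1 well below the other controls; its call was lost when control 2, control 3, iKO 1 or iKO 2 was left out, with an adjusted p that reached 0.0612. Cdc45, which locks GINS onto the MCM ring, went from 38.0, 49.7 and 50.8 CPM to 12.9, 9.03 and 4.30 CPM (-2.40 ± 0.36). The groups did not overlap for any of these. Gins4 was at 25.7, 28.02 and 45.0 CPM in the controls and at 20.7, 20.7 and 22.0 CPM in the iKO-labelled libraries (-0.64 ± 0.22, 95% interval -1.16 to -0.12, adjusted p = 0.085). The groups of Gins4 did not overlap either, and it was called by DESeq2 (adjusted p = 0.0419) and with no count filter (adjusted p = 0.0363). The log2 ratio of Gins4 to Gins1 was 1.51, 0.86 and 1.51 in the controls and 3.31, 2.62 and 3.86 in the iKO-labelled libraries, a difference of 1.97 ± 0.42, while the ratios of Gins2, Gins3 and Cdc45 to Gins1 overlapped between the groups. In the GENCODE M21 annotation 67.3% of the exon bases of Gins2 are also exons of Gse1 on the opposite strand, and the libraries do not mark strand.

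In the clamp loader, the ring that opens PCNA and closes it around DNA, all 5 subunits fell, the large one least. Rfc1, the large subunit, was at 60.5, 72.4 and 64.1 CPM in the controls and 38.5, 43.3 and 42.7 CPM in the iKO-labelled libraries (log2 fold change -0.66 ± 0.12, adjusted p = 0.00778 by edgeR). Rfc2 to Rfc5, the small subunits, are shared with the alternative loaders built on Rad17, Chtf18 or Atad5. Rfc2 went from 66.1, 76.0 and 77.5 CPM to 14.9, 22.8 and 26.7 CPM (-1.77 ± 0.22). Rfc5 went from 44.5, 72.0 and 67.4 CPM to 12.6, 23.7 and 20.03 CPM (-1.71 ± 0.27). Rfc3 (-1.58 ± 0.31) and Rfc4 (-1.53 ± 0.22) lay close to these, and the 95% intervals of the 4 small subunits overlapped. Relative to Rfc1, each of them was lower in the iKO-labelled libraries without overlap: the log2 ratio differed by -1.15 ± 0.21 for Rfc2, -1.06 ± 0.27 for Rfc5, -0.93 ± 0.39 for Rfc3 and -0.87 ± 0.27 for Rfc4. In GENCODE M21, Rfc4 shares 12.7% of its exon bases with Eif4a2 on the opposite strand. Eif4a2 had 8544 to 10540 counts in the controls and 18595 to 26086 in the iKO-labelled libraries. Rfc2 shares 15.1% with Lat2 and Rfc5 10.7% with Wsb2, so these levels and ratios carry that uncertainty.

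The clamp itself and its small partner gave the widest gap of the fork. Pcna, the sliding clamp, had the highest mean FPKM of the members in both groups (130.3 ± 14.4 in the controls, 68.3 ± 0.505 in the iKO-labelled libraries, SD, n = 3). In the iKO-labelled libraries this lay within the spread of Pold4 (64.4 ± 12.0 FPKM), which was higher in 2 of the 3. Pcna was at 286, 352 and 323 CPM in the controls and 166, 167 and 165 CPM in the iKO-labelled libraries (log2 fold change -0.95 ± 0.09, adjusted p = 4.5e-04 by edgeR). Pclaf, also known as PAF15, binds PCNA and is ubiquitinated during S phase. The gene spans 65890237 to 65903266 on the plus strand of chromosome 9 (GRCm38) and shares no exon bases with another gene. It was at 52.4, 78.4 and 80.0 CPM in the controls and 0.876, 1.398 and 1.26 CPM in the iKO-labelled libraries, where it had 25, 41 and 31 counts (-5.90 ± 0.27, adjusted p = 3.6e-05). The log2 ratio of Pclaf to Pcna was -2.45, -2.17 and -2.01 in the controls and -7.54, -6.88 and -7.01 in the iKO-labelled libraries, a 30.6-fold shift. On log2(FPKM + 1) the change of Pclaf is compressed to -3.60. GENCODE M21 names 2 pseudogene copies of Pcna, which may share reads with it.

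**Figure D3:**
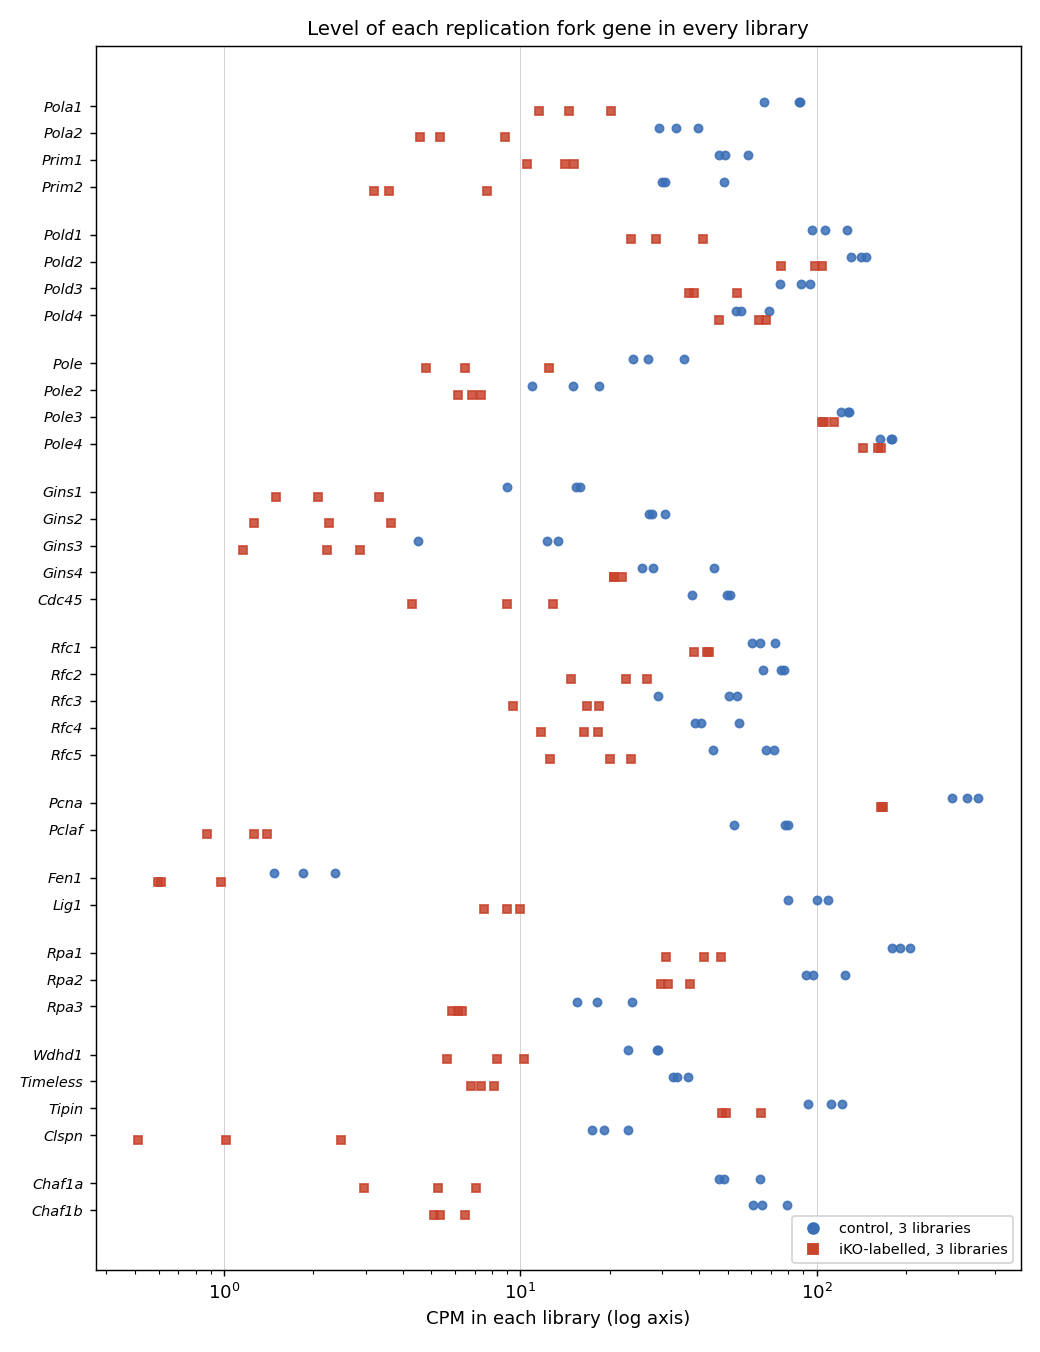
CPM of each fork gene in every library on a log axis; circles are the 3 controls and squares the 3 iKO-labelled libraries. The groups overlap only for Pold4 and Pole4, and the squares of Pcna coincide at 165 to 167 CPM.

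Of the enzymes that finish Okazaki fragments, DNA ligase I fell steeply. Lig1 was at 80.0, 100.2 and 109 CPM in the controls and 9.95, 9.0 and 7.54 CPM in the iKO-labelled libraries (log2 fold change -3.45 ± 0.18, adjusted p = 5.0e-05 by edgeR). Fen1, the flap endonuclease that trims the fragment end, was barely counted, with 33, 61 and 48 counts in the controls and 17, 18 and 24 in the iKO-labelled libraries (-1.37 ± 0.57, adjusted p = 0.139). Its groups did not overlap. In GENCODE M21, 84.2% of its exon bases are also exons of other genes on the opposite strand; the antisense gene Gm10143 alone covers 78.8% and had 7 to 76 counts per library. The sources do not state how reads in shared exons were assigned, so the level of Fen1, and its ratio to Lig1, are uncertain.

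RPA, which coats single-stranded DNA, fell in all 3 subunits. Rpa1, the large DNA-binding subunit, was at 191, 207 and 180.3 CPM in the controls and 47.5, 41.8 and 30.9 CPM in the iKO-labelled libraries (log2 fold change -2.27 ± 0.16, adjusted p = 1.5e-04 by edgeR). Rpa2, the subunit phosphorylated after damage, went from 91.7, 97.1 and 124 CPM to 37.4, 31.5 and 29.8 CPM (-1.67 ± 0.16). Rpa3, the smallest, went from 15.5, 18.1 and 23.7 CPM to 5.89, 6.14 and 6.33 CPM (-1.64 ± 0.23). Within a library, the ratio of Rpa2 to Rpa1 was higher in the iKO-labelled libraries by 0.63 ± 0.21 without overlap, and that of Rpa3 to Rpa1 by 0.67 ± 0.30 with overlap. Against Rpa1, 87.9% of tested genes gave a higher ratio without overlap.

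All 4 fork protection and checkpoint adaptor genes fell, over a wide range. Clspn (claspin), which carries the checkpoint signal from ATR to Chk1, was at 17.4, 22.999 and 19.1 CPM in the controls and 1.02, 0.511 and 2.47 CPM in the iKO-labelled libraries (log2 fold change -3.91 ± 0.52, adjusted p = 0.00196 by edgeR). Timeless, which holds the fork protection complex together, went from 33.8, 32.8 and 36.9 CPM to 6.80, 8.15 and 7.34 CPM (-2.21 ± 0.17). Its obligate partner Tipin went from 93.7, 112 and 122 CPM to 64.6, 49.4 and 47.9 CPM (-1.02 ± 0.16). Wdhd1 (AND-1), which couples polymerase alpha to the helicase, went from 29.0, 23.04 and 28.9 CPM to 8.34, 10.3 and 5.64 CPM (-1.74 ± 0.25). The log2 ratio of Tipin to Timeless was 1.47, 1.77 and 1.73 in the controls and 3.25, 2.60 and 2.70 in the iKO-labelled libraries (difference 1.19 ± 0.22), and that of Clspn to Timeless differed by -1.94 ± 0.70. Both ratios kept the groups apart. Against Timeless, 87.9% of tested genes gave a higher ratio without overlap and 0.609% a lower one. The ratio of Tipin thus shows only that Tipin changed less than Timeless, and that of Clspn only that Clspn fell more.

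CAF-1, the chaperone that deposits new histones H3 and H4 behind the fork, fell in both subunits. Chaf1a, its large PCNA-binding subunit, was at 48.6, 46.9 and 64.4 CPM in the controls and 5.26, 7.09 and 2.96 CPM in the iKO-labelled libraries (log2 fold change -3.38 ± 0.32, adjusted p = 4.4e-04 by edgeR). Chaf1b went from 61.0, 79.4 and 65.2 CPM to 6.52, 5.11 and 5.35 CPM (-3.60 ± 0.18). Their ratio overlapped between the groups, with a difference of -0.14 ± 0.44. In GENCODE M21, 52.5% of the exon bases of Chaf1a are also exons of Ubxn6 on the opposite strand, which had 875 to 1524 counts per library. The level of Chaf1a and its ratio to Chaf1b carry that uncertainty.

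Levels were compared between genes on the deposited FPKM, which correct counts for the length of the gene. In polymerase epsilon the order of subunits was the same in both groups, with Pole lowest at 2.52 ± 0.546 FPKM (SD, n = 3) and Pole4 highest at 67.7 ± 4.24 FPKM in the controls; the ratio of highest to lowest mean went from 26.8 in the controls to 88.1 in the iKO-labelled libraries. In polymerase delta it went from 3.53 to 10.2, and the lowest subunit changed from Pold3 (20.4 ± 2.59 FPKM, beside 22.1 ± 3.23 for Pold1, within their spread) to Pold1 (6.33 ± 1.85 FPKM). In GINS with Cdc45 it went from 5.77 to 26.6, with Gins4 highest in both groups and Gins2 lowest in the iKO-labelled libraries at 0.575 ± 0.289 FPKM. Gins2 shares 67.3% of its exon bases with Gse1, so its FPKM, its place as the lowest and the ratio of 26.6 are uncertain. The ratio changed little in the clamp loader (2.51 and 2.97, Rfc4 over Rfc2) and in RPA (2.07 and 2.04, Rpa2 over Rpa3). It does not show the subunits that changed apart from the others, Rfc1 and Rpa1. Rpa1 went from 33.8 ± 2.37 to 7.09 ± 1.49 FPKM, beside 34.1 ± 6.0 and 10.9 ± 1.32 FPKM for Rpa2. The gene lengths behind the FPKM matched the GENCODE M21 exon length to within 1% for 23 of the 35 members and differed by more for the other 12. They were 0.346 of it for Pola2, 0.374 for Chaf1a, 0.588 for Pole2, 0.642 for Cdc45, 0.648 for Tipin, 0.782 for Pold4 and 0.784 for Rfc1, so the FPKM of these genes, and their place among the subunits, depend on the gene model.

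**Figure D4:**
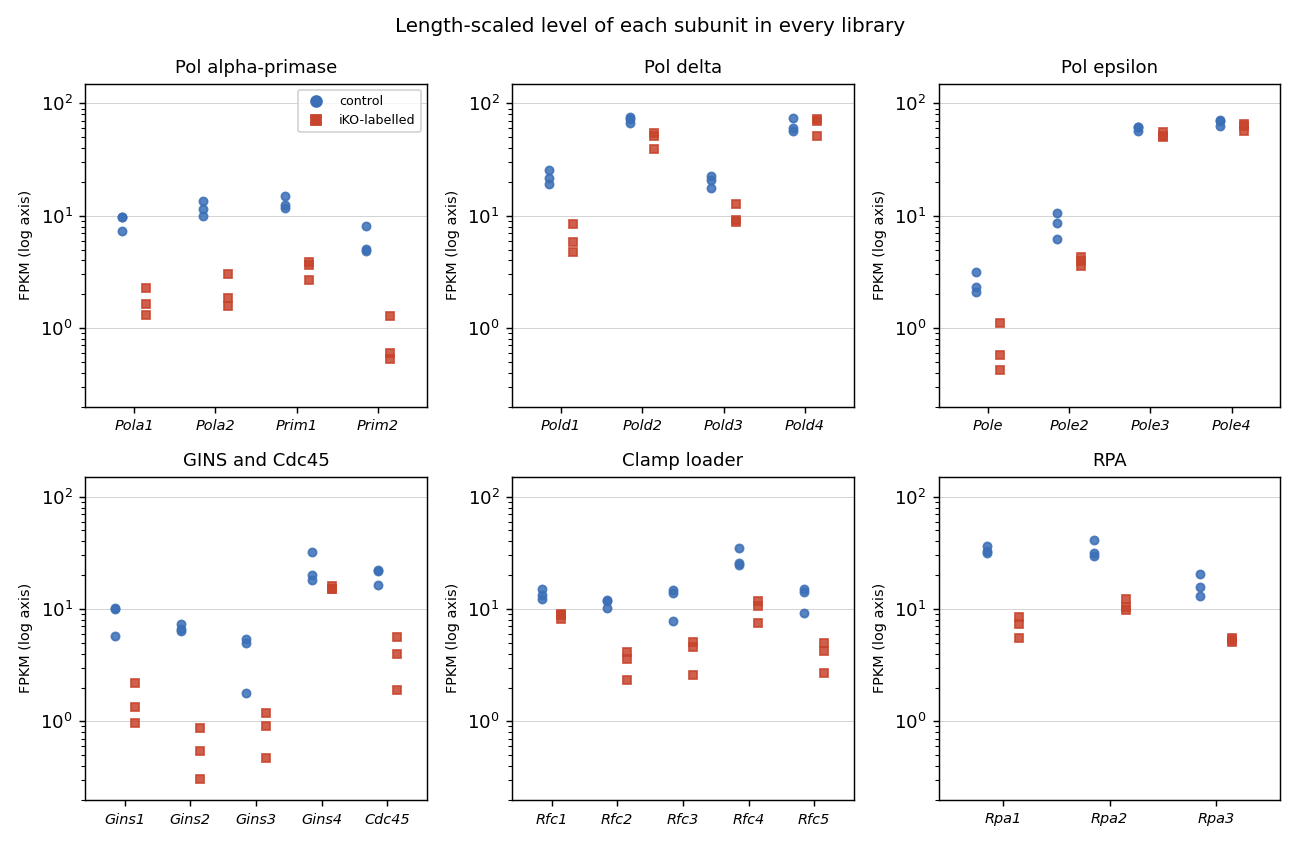
FPKM of each subunit in every library on a log axis, for 6 complexes; circles are controls and squares iKO-labelled libraries. Circles and squares overlap or nearly meet for Pole3, Pole4 and Pold4 while those of Pole and Pold1 are far apart. Every RPA subunit shifts down, Rpa1 most.

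Among the controls, control 1 was the lowest library for 30 of the 35 members and control 3 the highest for 20. The summed CPM of the members was 2197 in control 1 and 2594 and 2648 in controls 2 and 3. The iKO-labelled libraries shared the lowest place more evenly (12, 7 and 16 members for iKO 1, 2 and 3), with sums of 1053, 1061 and 982 CPM. Without control 1, 30 members were lower and none higher. Control 1 had a count on 24334 named genes, controls 2 and 3 on 20508 and 20393, and the iKO-labelled libraries on 22964 to 25433. Among the controls, control 1 was highest for Pecam1 (50.3, 22.6 and 15.6 CPM) and Rgs5 (84.5, 45.7 and 16.6 CPM). Of the list that holds Rgs5, it was lowest for Acta2 (140, 244 and 182 CPM) and Myh11 (2.85, 6.81 and 4.84 CPM). It was lowest for Lyz2 (77.8, 80.9 and 134 CPM) but highest for Itgam (11.1, 9.06 and 9.49 CPM), another macrophage marker. The pericyte and macrophage markers thus went in different directions. Whether these differences bear on the members was not tested.

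Of 26 other genes of the fork and of replication initiation, 17 fell and none rose, where 12.3% of tested genes fell and 8.15% rose. At an unadjusted p under 0.05, 19 of the list were lower and 1 higher, and DESeq2 called 18 lower and 1 higher. The median log2 fold change of this list was -0.96. The 3 with the smallest adjusted p were Exo1, a 5' to 3' exonuclease (27.1 ± 0.998 CPM in the controls, 1.06 ± 0.172 in the iKO-labelled libraries, -4.67 ± 0.23, SD for levels and n = 3), Mcm10, which helps start the helicase (-3.12 ± 0.20), and Asf1b, the histone chaperone that hands histones to CAF-1 (-3.02 ± 0.21). Of 8 genes of alternative clamps and clamp loaders, 4 fell and 1 rose, beside the same shares of tested genes, with a median of -0.26. Chtf18 (-2.97 ± 0.21) and Dscc1 (-4.29 ± 0.55), of the loader that serves sister chromatid cohesion, fell, as did Atad5, which unloads PCNA (-1.03 ± 0.23). Chtf8, of the same loader as Chtf18 and named after its values were seen, fell far less (-0.36 ± 0.11, adjusted p = 0.0453 by edgeR). With libraries scaled by their totals alone, 3 genes of this list were lower. Rad17, the large subunit of the loader of the damage checkpoint clamp, rose from 36.1 ± 9.15 to 59.7 ± 5.96 CPM (0.72 ± 0.19, adjusted p = 0.0332 by edgeR). The call of Rad17 ended without any library but control 3 (adjusted p up to 0.116), and that of Atad5 without controls 2 or 3 or iKO 2 (adjusted p up to 0.059).

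Polymerases that do not work at the moving fork gave other counts. Of 14 repair, translesion and mitochondrial polymerase genes, 13 were tested, 4 rose and 1 fell, and the median log2 fold change was 0.52. The 1 that fell was 7.69% of those tested, where 12.3% of all tested genes fell and 8.15% rose. Polk, a translesion polymerase, rose from 6.76 ± 1.63 to 38.5 ± 8.71 CPM (SD, n = 3; 2.51 ± 0.25, adjusted p = 5.7e-04 by edgeR). Polg2, the accessory subunit of the mitochondrial polymerase, rose from 7.52 ± 2.46 to 18.3 ± 2.13 CPM (1.28 ± 0.27, adjusted p = 0.0129), which was no longer called without iKO 3 (adjusted p = 0.0555). The other risers, named after their values were seen, were Polb, of base excision repair (0.55 ± 0.14), and Rev1, a translesion scaffold (0.52 ± 0.15); the call of Polb ended without each library in turn and that of Rev1 without each but control 2 (adjusted p up to 0.0898 and 0.141). Mad2l2, a subunit of polymerase zeta that also acts in mitosis, fell from 33.5 ± 7.94 to 18.5 ± 3.42 CPM (-0.86 ± 0.22, adjusted p = 0.0299); leaving out any library except control 1 ended this (adjusted p up to 0.102). With libraries scaled by their totals alone, which moves the median of all genes from 0.02 to 0.16, the list had 4 higher and 0 lower. Without control 1 its median was 0.09, with 2 genes higher and 1 lower, and the number higher was 1 to 3 as each library was left out.

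**Figure D5:**
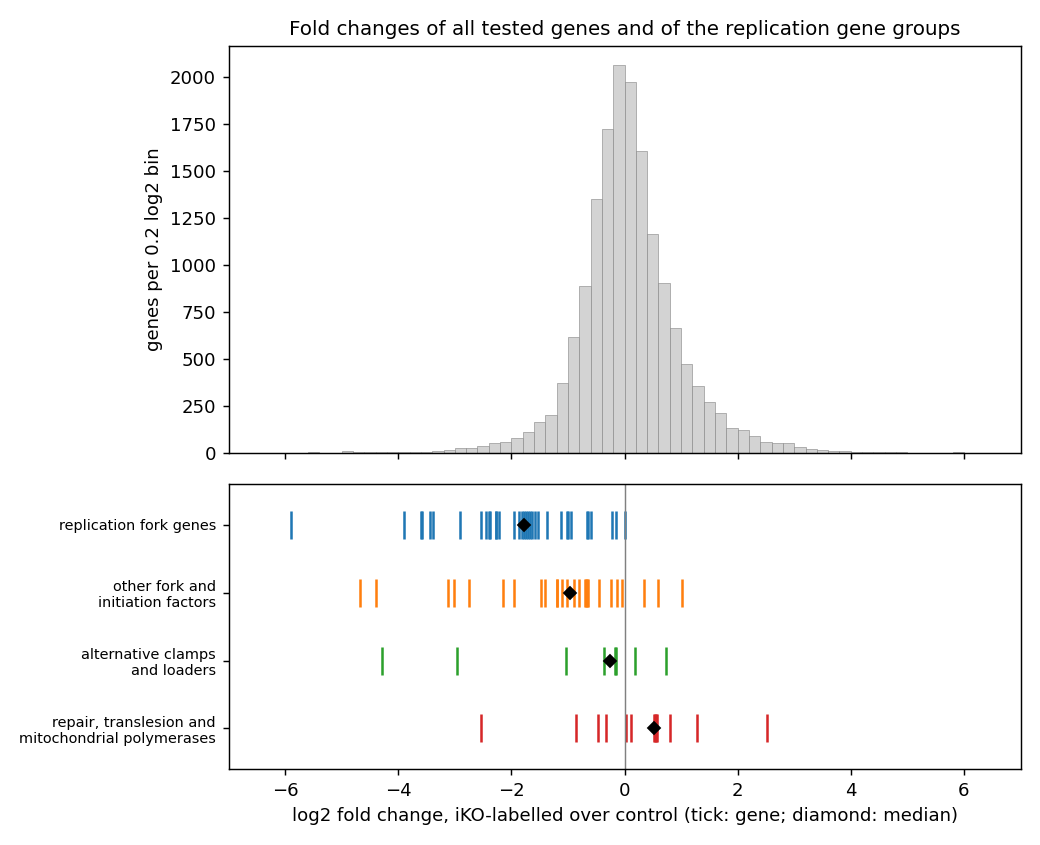
Top, the number of tested genes per bin of log2 fold change (iKO-labelled over control), shown from -7 to 7; bottom, each gene of 4 groups as a tick with the group's median as a diamond. The medians lie at -1.77 for the fork genes, -0.96 for other fork and initiation factors, -0.26 for alternative clamps and loaders and 0.52 for repair, translesion and mitochondrial polymerases.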

How the data were processed

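RNA from YFP-sorted cells was reverse transcribed and amplified by Smart-Seq2, which does not mark strand, per the labels' protocols. The tools in the submitters' processing notes are STAR, Trim Galore, Subread with featureCounts, and DESeq2, and the build is mm10; versions, annotation and the handling of shared reads are not stated there. The authors deposited raw counts per gene and library and FPKM for the same genes; these FPKM follow median-of-ratios scaling (largest relative deviation 1.1e-14 over 11939 genes that had 20 or more counts in each library). Of 46078 rows, 551 had no gene name (0.108% to 0.123% of a library's counts) and were left out.

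The main test was the quasi-likelihood test of edgeR 4.0.16 (R 4.3.3) across all 6 libraries, with TMM scaling, filterByExpr (minimum count 10, minimum total 15) and no covariate. SE is the size of the log2 fold change over the square root of F, and 95% intervals use the fit's degrees of freedom. The code of the test was run on simulated counts with changes planted in a small share of the genes. This checked the code, and not the behaviour of the test where as many genes change as here. Within-library ratios added 0.5 to each count. Marker sums are CPM by library totals. Positions and exons came from GENCODE M21 (GRCm38), promoters from RefSeq. Named are all members, Paxbp1, and from each list of other fork genes the 3 with the smallest adjusted p and any called against most of its list. Polb, Rev1 and Chtf8 were added after their values were seen. The members and lists were chosen with earlier results of these data known. Alternatives were DESeq2 1.42.0, limma 3.58.1 (voom, and log2 of FPKM plus 1 or 0.1), other scalings, filters and thresholds, the replicate number as a block, and each library left out; Python 3.11.15, scipy 1.17.1 and matplotlib 3.10.9 were used for ratios and plots.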

Additional observations from a re-analysis of the deposited data

How the results depend on the processing

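The count of 30 lower members ran from 21 (unfiltered log2(FPKM + 1)) and 23 (tested against a 1.5-fold change) to 31, and no alternative called a member higher. The calls that ended at these 2 settings are named beside the results. Over the members, 592 of 626 results under up to 18 alternatives kept direction and side of the threshold, and 20 of the 30 called members were called under every alternative. Losses without a library were those of Pold2, Pole2 and Gins3. The sign of Pold4 turned with the replicate block (-0.0054), limma-voom (-0.00039) and without control 1 (-0.07), control 2 (-0.04), iKO 1 (-0.06) or iKO 2 (-0.10); without iKO 3 it was 0.15. Calls in the lists of other fork genes, 27 in all, fell to 13 against a 1.5-fold change and 15 on unfiltered log2(FPKM + 1), and ranged from 19 to 23 with a library left out. Ratios whose groups did not overlap numbered 15 with 1 or 5 added to each count. With a library left out they numbered 15 to 18. That count could not fall, because fewer libraries cannot make separate groups overlap. Same-numbered libraries did not deviate together (correlations -0.07, -0.0021 and -0.06, and 0 of 6 libraries correlated best with their own number), so the number was not taken as a pairing. With the replicate block 30 members were lower and 22 genes of the other lists were called. All genes then gave 1402 lower and 813 higher calls, against 1991 and 1324 without it. In all 3 same-numbered comparisons 17 ratios moved alike, which every ratio without overlap must do. With few counts (Fen1, or Clspn in the iKO-labelled libraries), the size of a fold is loosely set.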
